A study of Homo sapiens with 12 samples.

Results

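Long noncoding RNAs are transcripts that are spliced and often polyadenylated like messenger RNA but are not translated into a known protein. Antisense transcripts are read from the strand opposite a named gene, and many start beside that gene's promoter and run away from it. Others serve as hosts, whose introns or exons are cut into microRNAs or small nucleolar RNAs, the guides of ribosomal RNA modification. Members were taken by symbol: LINC numbers, the endings -AS and -IT with a number, microRNA host genes (MIR...HG), small nucleolar RNA host genes (SNHG), and MALAT1, NEAT1, H19 and ABALON. In the 3 deposited tables together, 99 of 5308 listed genes met this rule. They were 63 antisense transcripts, 29 LINC transcripts, 2 microRNA hosts (MIR17HG and MIR100HG), 2 small nucleolar RNA hosts (SNHG1 and SNHG16), and NEAT1, H19 and ABALON. MALAT1 and -IT transcripts were in none of the tables and were not analysed here.

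The cells were KKU-213A, a human cholangiocarcinoma (bile duct cancer) line of mixed papillary and non-papillary type. Polyadenylated RNA was sequenced in 12 libraries, 3 per group. All groups grew in low-glucose medium with 10% fetal bovine serum. Control cells had that medium alone, lactic acidosis cells had 25 mM L-lactate with 25 mM HEPES buffer at pH 6.7, lactosis cells had 25 mM L-lactate at pH 7.4, and acidosis cells had 25 mM HEPES at pH 6.5. Adaptation to a treatment medium took 5 or more passages, stepwise for lactic acidosis, and no such adaptation is stated for controls, so treatment and time in the medium cannot be told apart. HEPES went only with the acid media, so acid and buffer cannot be told apart either. The labels do not say whether the 3 libraries of a group were separate cultures, so the tests measure a spread that may be technical. A single cell line was used.

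Each table sets 1 treated group against the same 3 controls and holds only genes that the authors listed, at a posterior probability of equal expression under 0.05. The per-library values are expression values scaled for gene length, with no read totals, so the depth is unknown. Of the bile duct markers KRT7, KRT19, EPCAM, SOX9 and CDH1, the lactic acidosis table lists KRT19, SOX9 and CDH1, which summed to 2750 to 4530 in its libraries. Among the shared controls, replicate 1 was lowest at 2870, against 4250 and 4530 in the others. Weights that match the libraries to the authors' means in that table were 1.16 for control replicate 1, and 0.93 and 0.90 for the other controls. No fibroblast marker was listed, and the only listed blood marker was CD68. Muscle markers stood apart in 2 libraries: 7 listed markers summed to 36.7 in lactic acidosis replicate 2 against 5.41 and 4.51 in the others, and 5 summed to 48.1 in lactosis replicate 2 against 0.47 and 0.53. Their part in the results was not tested, and counts of calls without each library are given below. Against the authors' group means, the deposited lactic acidosis values lay 0.10 higher (log2, median of the 3665 genes used for the weights). Genes at low values were left out of that median, and tests on per-library values carry the shift. In bulk RNA, fewer cells with a transcript and less of it per cell cannot be told apart.

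Where a transcript lies matters for what its value can mean. The labels name no step that marks strand, so reads from overlapping sense and antisense exons cannot be told apart. In GENCODE release 29 (GRCh38), 82 members were placed by symbol and 13 through a RefSeq synonym, while 4 were not placed. Of these 95, 49 had some exonic bases under an exon of the opposite strand, and 15 had at least 25% of them there. RefSeq now places 5 members in protein-coding genes: LINC00176 in C20orf204, LINC00493 in SMIM26, LINC00998 in SMIM30, LINC01279 in CCDC80 and TNRC6C-AS1 in TMC6. Another 14 now carry the ending -DT, for divergent transcript.

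The microRNAs inside the hosts are shown because both hosts were listed higher in every treated group. MIR17HG (chr13:91347820-91354579, plus strand) holds 6 hairpins of the miR-17-92 cluster, which MYC is known to induce, and MIR100HG (chr11:122028327-122556721, minus strand) holds 4. These mature sequences are from RefSeq (GRCh38.p14), 5′ to 3′, with the seed, bases 2 to 8, in capitals. Within MIR17HG, miR-17-5p and miR-20a-5p share 1 seed and miR-19a-3p and miR-19b-3p another, while the 3 arms shown from MIR100HG have 3 different seeds. The poly(A) libraries measured the host transcripts, and no value for a mature microRNA was available.
miR-17-5p: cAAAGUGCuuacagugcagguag
miR-20a-5p: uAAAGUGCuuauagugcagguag
miR-18a-5p: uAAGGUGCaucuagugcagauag
miR-19a-3p: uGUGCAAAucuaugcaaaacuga
miR-19b-3p: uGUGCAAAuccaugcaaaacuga
miR-92a-3p: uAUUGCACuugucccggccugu
miR-100-5p: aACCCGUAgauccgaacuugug
let-7a-5p: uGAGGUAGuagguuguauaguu
miR-125b-5p: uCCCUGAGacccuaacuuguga

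Antisense transcripts that start beside their sense gene share a promoter region with it, and 3 such stretches are shown because transcript and gene were listed together in lactic acidosis. Each runs from 1 annotated start to the other, is printed 5′ to 3′ on the antisense transcript's strand, and has every CG dinucleotide in capitals. OSER1-AS1 (OSER1-DT in RefSeq) starts 169 bases from OSER1, and the stretch is chr20:44210792-44210959, plus strand. EIF3J-AS1 (EIF3J-DT) starts 134 bases from EIF3J, with chr15:44536924-44537056, minus strand, between them. USP46-AS1 (USP46-DT) starts 71 bases from USP46, with chr4:52659336-52659405, plus strand, between them. They are 76.8%, 78.9% and 87.1% G and C and hold 23, 19 and 11 CG dinucleotides, and they are shorter than the RefSeq promoter windows of 300 bases, whose median was 58.3% G and C over all 27305 and 63.3% over 81 members. Member windows, here and below, were taken by RefSeq symbol, so they can include promoters of the 5 protein-coding genes named above.
OSER1-AS1: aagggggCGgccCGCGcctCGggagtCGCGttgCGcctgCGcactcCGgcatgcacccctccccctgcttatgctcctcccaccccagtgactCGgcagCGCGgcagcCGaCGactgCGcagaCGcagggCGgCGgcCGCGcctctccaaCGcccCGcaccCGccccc
EIF3J-AS1: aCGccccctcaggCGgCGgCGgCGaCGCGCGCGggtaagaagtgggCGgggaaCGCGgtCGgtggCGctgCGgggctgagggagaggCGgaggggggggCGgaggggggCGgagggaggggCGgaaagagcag
USP46-AS1: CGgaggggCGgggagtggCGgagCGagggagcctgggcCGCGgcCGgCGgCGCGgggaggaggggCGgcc

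The promoter of UNC5B-AS1 is shown as a contrast, since this transcript was the furthest below control of all members in lactic acidosis and lactosis. Its window, 250 bases before to 50 after the start (chr10:71218179-71218478, minus strand, GRCh38.p14), overlaps no exon of a protein-coding gene. It is 51.3% G and C with 2 CG dinucleotides. The capitals mark its single match to TGANTCA, a sequence that AP-1 factors are known to bind. Of all 27305 promoter windows, 7.76% hold TGANTCA on either strand, as do 9 of the 81 members with a window. CACGTG, the E-box read by MYC, was in 7.43% of all windows and 9 of 81 members, and CCAAT in 35.7% and 31 of 81. A match is only a description of the letters.
UNC5B-AS1: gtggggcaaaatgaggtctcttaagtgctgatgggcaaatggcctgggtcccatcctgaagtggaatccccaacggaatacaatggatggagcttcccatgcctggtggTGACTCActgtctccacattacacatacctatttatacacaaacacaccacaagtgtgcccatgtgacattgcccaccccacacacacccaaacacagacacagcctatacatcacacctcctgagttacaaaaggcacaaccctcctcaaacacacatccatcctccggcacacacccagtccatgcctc

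Members were mostly lower than control in lactic acidosis and lactosis. The authors listed 85 members in lactic acidosis, 18 higher and 67 lower (78.8% lower), where 41.1% of all 4279 listed genes were lower and 58.9% higher. In lactosis 46 members were listed, 13 higher and 33 lower (71.7% lower), against 40.7% lower and 59.3% higher among 3087 genes. In acidosis 30 were listed, 13 higher and 17 lower (56.7% lower), against 38.9% lower and 61.1% higher among 1721 genes. The 3 comparisons share their controls, and listing was done on these libraries, so the counts are a description and were not tested.

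The members were also low in abundance, and low genes of any kind were listed lower more often. The larger of a member's 2 deposited group means had a median of 130 in lactic acidosis, against 765 over all listed genes. Among listed genes with a larger group mean under 500, 63.3% were lower and 36.7% higher in the lactic acidosis table, 56.8% and 43.2% in that of lactosis, and 55% and 45% in that of acidosis. At that level, 61 of 75 members (81.3%) were lower in lactic acidosis, 28 of 39 (71.8%) in lactosis and 16 of 28 (57.1%) in acidosis. The members therefore lay above the low-level background in lactic acidosis and lactosis and near it in acidosis.

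**Figure D1:**
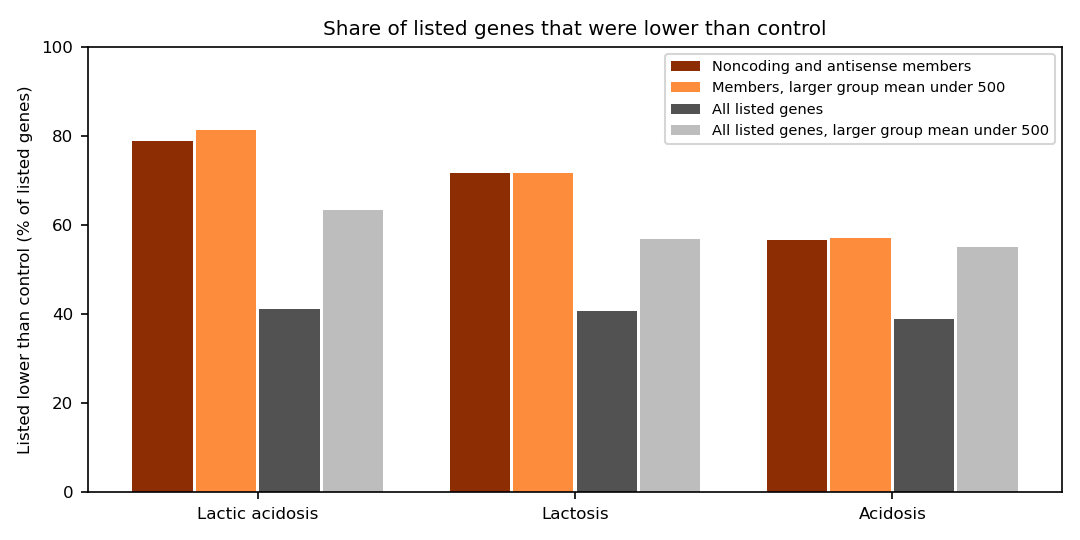
Bars give the percent of listed genes that were lower than control (vertical axis, from 0 to 100%) in the 3 tables, for members and for all listed genes, each also at a larger group mean under 500. The members' bars stand at 78.8%, 71.7% and 56.7%, and those of low-level listed genes at 63.3%, 56.8% and 55%.

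By class, directions were as follows, and no difference between classes was tested. Of the antisense transcripts, 47 of 55 were lower under lactic acidosis, 22 of 26 under lactosis and 10 of 17 under acidosis. LINC transcripts were lower in 16 of 23, 8 of 14 and 7 of 10. Both microRNA hosts were higher in all 3 tables, and the small nucleolar RNA hosts were lower wherever listed. The members' median log2 fold, treated over control, was -0.998 in lactic acidosis (0.37 over all listed genes), -0.67 in lactosis (0.35) and -0.57 in acidosis (0.32). At least 2-fold changes numbered 8 higher and 42 lower in lactic acidosis, where 10.5% and 15.7% of listed genes passed that size. They numbered 4 and 16 in lactosis (8.1% and 12.8%) and 4 and 6 in acidosis (4.01% and 8.48%).

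Members with and without exonic overlap with the other strand were lower in similar shares. In lactic acidosis, members with no exonic base under an opposite-strand exon were 31 of 39 lower, and those with some were 34 of 42 lower. Without the members that RefSeq places in coding genes, 64 of 81 were lower in lactic acidosis, 31 of 42 in lactosis and 15 of 27 in acidosis. By limma on log2(value + 1), 78 of 85 members passed an adjusted p under 0.05 against control in lactic acidosis (86.1% of all listed genes did), 41 of 46 in lactosis (77.7%) and 26 of 30 in acidosis (60%). By direction, 18 were higher and 60 lower in lactic acidosis (55.3% and 30.8% of listed genes), 12 and 29 in lactosis (46.5% and 31.2%), and 10 and 16 in acidosis (35.9% and 24.2%). The acidosis count fell to 15 without acidosis replicate 2. All libraries of 2 groups lay apart for 17 higher and 61 lower members in lactic acidosis, where 58.2% and 32% of listed genes did so. They lay apart for 13 and 27 in lactosis (52.1% and 31.9%) and for 12 and 15 in acidosis (50.2% and 25.3%). Since the genes were listed on the same libraries, these calls only describe the spread.

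MIR100HG, which hosts miR-100, let-7a-2 and miR-125b-1, had the largest fold above control of all members in lactic acidosis and lactosis. Its values were 0.3, 0.66 and 0.68 in control, 5.39, 5.1 and 5.03 in lactic acidosis, 2.35, 2.4 and 2.61 in lactosis, and 1.25, 1.88 and 1.59 in acidosis. No 2 groups overlapped, and the order was lactic acidosis, lactosis, acidosis, control. The authors' deposited table gives log2 folds over control of 3.13, 2.14 and 1.54 in the same order of treatments. Between treated groups, limma's adjusted p was 5.64e-05 for lactic acidosis over lactosis (difference 0.84 on the log2(value + 1) scale, SE 0.08) and 1.13e-05 for lactic acidosis over acidosis (1.27, SE 0.10). Lactosis over acidosis passed at 0.0156 (0.43, SE 0.10), and was lost without lactosis replicate 1 (0.0514) or replicate 3 (0.0548). UBASH3B, the nearest listed coding gene, 98954 bases away, was listed higher in lactic acidosis, at a deposited log2 fold of 1.01.

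MIR17HG showed no such grading. Its values were 2.6, 1.21 and 1.74 in control, 2.92, 2.98 and 4.5 in lactic acidosis, 3.36, 4.99 and 3.32 in lactosis, and 3.42, 3.19 and 3.31 in acidosis. Every treated library lay above every control, although control replicate 1 came close to the lowest treated one. The deposited log2 folds were 0.68, 0.88 and 0.68. The treated groups overlapped or did not differ by limma, with adjusted p values of 0.566 for lactic acidosis against lactosis, 0.847 against acidosis, and 0.391 for lactosis against acidosis.

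ABALON lies on the strand opposite BCL2L1, the gene of the survival protein BCL-XL, and 74.8% of its exonic bases fall under exons of the other strand (chr20:31721507-31723409, plus strand). Its values were 11.98, 15.15 and 14.8 in control, 48.32, 49.26 and 53.18 in lactic acidosis, 28.27, 19.66 and 32.76 in lactosis, and 23.36, 16.64 and 17 in acidosis. BCL2L1 had 179.74 to 182.24 in control, 458.52 to 486.11 in lactic acidosis and 302.27 to 340.97 in lactosis. Both were higher in lactic acidosis than in control and lactosis, BCL2L1 has no value in acidosis, and reads from the shared bases cannot be told apart. Limma's adjusted p for ABALON was 0.00241 for lactic acidosis over lactosis (difference 0.91, SE 0.15) and 3.07e-05 over acidosis (1.37, SE 0.12). For lactosis over acidosis it was 0.124, and passed without lactosis replicate 2 (0.0211) or acidosis replicate 1 (0.0409) and with rescaled values (0.0347). Acidosis over control did not pass limma (adjusted p 0.0571).

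NEAT1, the gene of the scaffold RNA of nuclear paraspeckles, was listed lower in both lactate groups. Its value from these poly(A) libraries is for the whole gene, so its isoforms cannot be told apart. NEAT1 had 76.91, 73.52 and 84.05 in control, 60.07, 49.84 and 49.64 in lactic acidosis, and 44.61, 31.17 and 51.8 in lactosis. All treated libraries lay below all controls, and the 2 treated groups overlapped (adjusted p 0.152 by limma, difference 0.34, SE 0.16; 0.0137 without lactosis replicate 3). Of 20 paraspeckle and speckle proteins on a list, 15 were listed higher and 1 lower in lactic acidosis, 14 and 1 in lactosis, and 11 and 0 in acidosis. Over all listed genes 58.9%, 59.3% and 61.1% were higher, and 86.1%, 77.7% and 60% passed limma. Of the proteins listed, 14, 12 and 7 passed. Among them, SFPQ, a core paraspeckle protein, went from 115.99, 180.32 and 199.11 in control to 294.75, 317.6 and 311.67 in lactic acidosis, with no overlap. The lower one was NONO, its partner, at a deposited log2 fold of -0.13 in lactic acidosis and -0.29 in lactosis.

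H19, an imprinted fetal transcript that hosts miR-675, was variable in control. Its values were 51.93, 110.39 and 113.05 there, 22.05, 21.88 and 25.26 in lactic acidosis, and 32.35, 25.06 and 30.36 in lactosis. All 6 lactate libraries lay below the lowest control. The deposited log2 folds were -2.03 and -1.65. Lactic acidosis against lactosis just missed the threshold (adjusted p 0.054 by limma, difference -0.33, SE 0.11) and passed at 0.0137 with rescaled values. TNNT3, a skeletal muscle troponin and the nearest listed coding gene, 56470 bases away, was lower in lactic acidosis at a log2 fold of -1.47, and it is also one of the muscle markers named above.

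SNHG1 and SNHG16 had the highest mean control values of all members. SNHG1 carries 7 small nucleolar RNA genes in its span and was listed only in the lactic acidosis table, with 338.58, 292.87 and 203.05 in control and 101.45, 103.19 and 98.08 in lactic acidosis. SNHG16 carries 3 and had 133.37, 137.98 and 139.54 in control, 106.78, 107.71 and 101.65 in lactic acidosis, and 102.16, 105.47 and 106.84 in lactosis. Both lay below control without overlap, SNHG1 by a deposited log2 fold of -1.61 and SNHG16 by -0.51 and -0.43. Of SNHG16's exonic bases, 30.6% fall under opposite-strand exons. ST6GALNAC2 lies 31 bases away on that strand, so those exons are not its own. It was listed at -1.17 in lactic acidosis.

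Every listed protein of the small nucleolar RNA particles or of their assembly was higher than control. Of 15 on a list, 9 were listed higher and 0 lower in lactic acidosis, 9 and 0 in lactosis, and 5 and 0 in acidosis, with median log2 folds of 0.55, 0.56 and 0.40. Limma was passed by 8, 9 and 1 of them, and neither host was listed in acidosis. The list mixes proteins of box C/D and H/ACA particles with assembly factors, among them NAF1, SHQ1, RUVBL1, NUFIP1 and ZNHIT6. The named small nucleolar RNAs inside SNHG1 and SNHG16 are SNORD genes, of the box C/D kind. DKC1, the pseudouridine synthase of the H/ACA kind, had 151.95, 178.81 and 188.66 in control and 310.59, 285.96 and 295.33 in lactic acidosis. NOP58, a box C/D protein, was listed at log2 folds of 0.15 in lactic acidosis and 0.41 in lactosis. Spliced host transcripts are known targets of nonsense-mediated decay, whose part in these values was not tested. Of 15 decay factors, 6 were listed higher under lactic acidosis, 5 under lactosis and 1 under acidosis, with 0 lower. Of these, 6, 2 and 1 passed limma. UPF1, the helicase of that pathway, had 29.39, 45.2 and 47.4 in control and 63.48, 66.35 and 68.85 in lactic acidosis. Of 15 proteins of microRNA processing and silencing, 6 were listed higher and 1 lower in lactic acidosis, 4 and 1 in lactosis, and 1 and 1 in acidosis. The lower ones were silencing proteins, TNRC6C in lactic acidosis and acidosis and AGO4 in lactosis. DICER1, which cuts hairpins to mature microRNAs, had 8.13, 14.73 and 17.31 in control and 27.3, 34.24 and 28.42 in lactic acidosis. Over all listed genes 58.9%, 59.3% and 61.1% were higher, and 86.1%, 77.7% and 60% passed limma. The median in lactic acidosis was 0.37, and no list was tested.

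Among LINC transcripts, LINC01204 (chrX:45505388-45630202) was furthest above control. It had 0.63, 2 and 2.79 in control, 9.63, 11.91 and 10.93 in lactic acidosis, and 6.05, 4.4 and 5.57 in lactosis. The groups were fully separate, with a difference of 0.90 (SE 0.11) between the treated groups and an adjusted p of 0.000445 by limma. LINC00261, known as a neighbour of the endoderm factor FOXA2, had 1.83, 1.56 and 1.84 in control, 4.72, 5.53 and 4.39 in lactic acidosis, 2.85, 2.45 and 2.73 in lactosis, and 3.39, 2.95 and 2.77 in acidosis. It was highest in lactic acidosis (adjusted p 0.00082 over lactosis and 0.00149 over acidosis), and lactosis and acidosis overlapped (0.293). Of its windows of 75 bases, 85.3% also occur in another annotated transcript of the same sense, so its reads may be split with that transcript.

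LINC01128 was above control in both lactate groups, with 2.34, 3.99 and 3.41 in control, 6.35, 5.48 and 6.97 in lactic acidosis, and 6.8, 6.08 and 7.69 in lactosis. The treated groups overlapped (adjusted p 0.456). SAMD11, its nearest listed coding gene, lies 64482 bases away and was at log2 folds of -4.93 and -3.00. LINC00998, now the small membrane protein gene SMIM30, had 59.54 to 76.52 in control, 79.75 to 95.3 in lactic acidosis, 87.77 to 99.8 in lactosis and 95.95 to 106.14 in acidosis. It was above control in every treated library. LINC00364 was listed only in acidosis, with 0.55, 0.36 and 0.82 in control and 2.19, 3.62 and 3.98 there, the largest fold of any member in that table (log2 2.35).

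Other LINC transcripts were below control. LINC00673 had 15.54, 25.75 and 25.13 in control against 13.43 to 16.03 in lactic acidosis, 11.86 to 16.55 in lactosis and 14.01 to 16.34 in acidosis, so its first control overlapped every treated group. LINC00674 overlapped control in lactic acidosis and acidosis, and its adjusted p by limma was 0.071 and 0.129 there. LINC01315 was the furthest below in lactic acidosis, with 3.7, 2.42 and 1.99 in control and 0.69, 0.34 and 0.5, without overlap. LINC01279 was lower in each table by a deposited log2 fold of -1.88, -1.88 and -1.80, at control values of only 0.49 to 0.73. LINC00346 and LINC00665 were both lower in lactic acidosis than in acidosis. LINC00346 had 1.25 to 1.83 against 1.87 to 2.45 (adjusted p 0.0188, difference -0.36, SE 0.11), and LINC00665 had 7.63 to 8.95 against 9.52 to 11.12 (0.0201, -0.29, SE 0.09). Each call was lost without lactic acidosis replicate 2 or acidosis replicate 2 (p from 0.0638 to 0.0798), and that of LINC00346 also without lactic acidosis replicate 3 (0.0754).

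**Figure D2:**
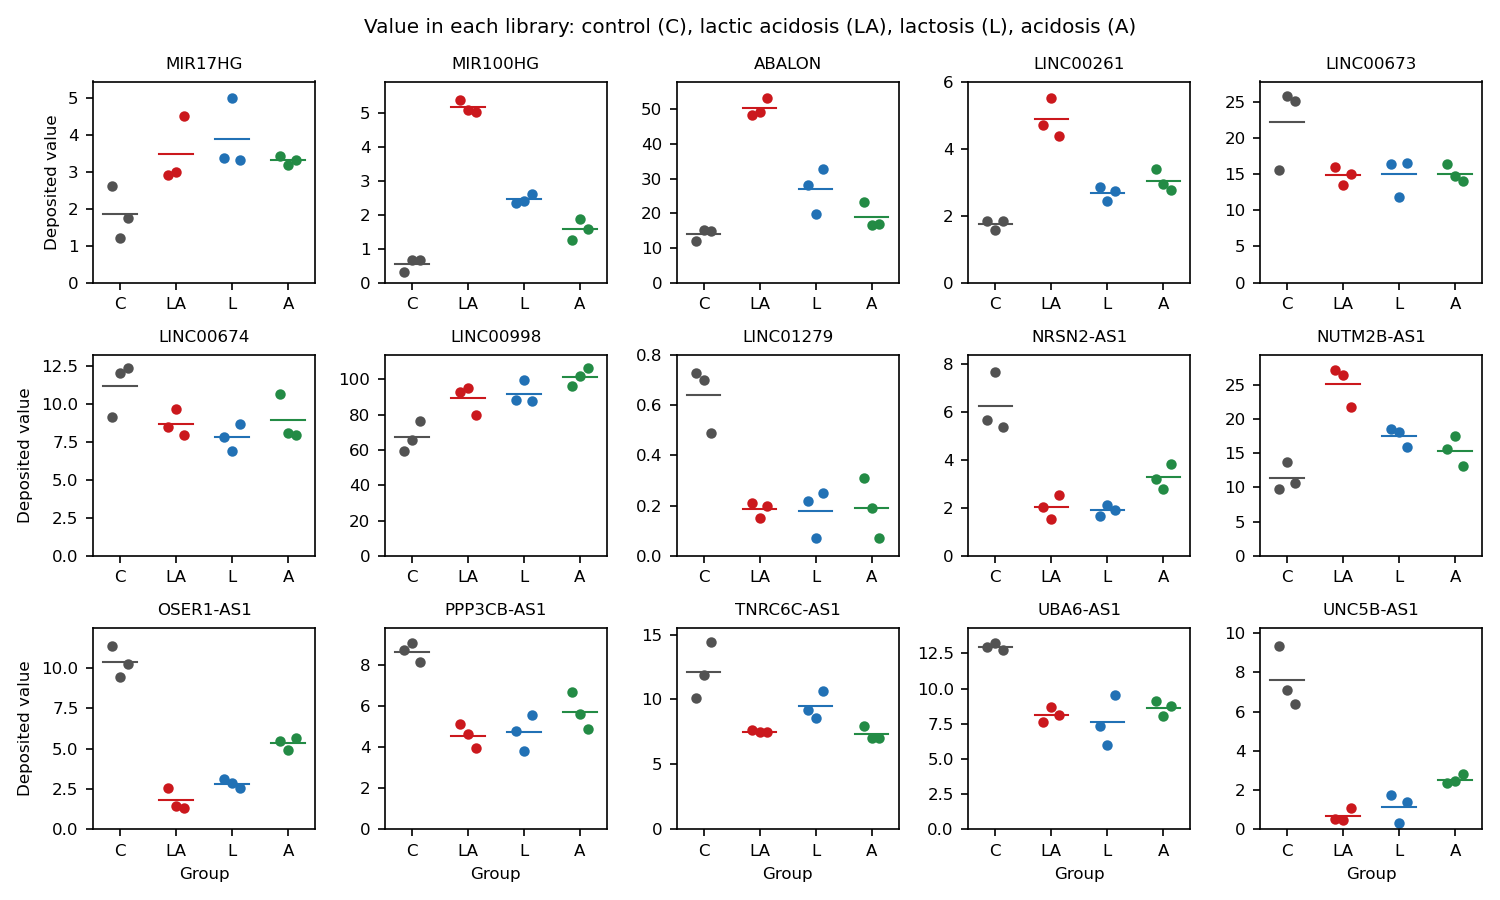
Points give the deposited, length-scaled value in each library (vertical axis from 0, its own range in each panel) of the 15 members listed in all 3 tables, by group, and lines give the means of 3 libraries. MIR100HG steps from 0.3 to 0.68 in control up to 5.03 to 5.39 in lactic acidosis. OSER1-AS1 and UNC5B-AS1 have their lowest means in lactic acidosis, where their libraries overlap those of lactosis.

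Of the antisense transcripts, OSER1-AS1 was graded most clearly. It had 11.39, 9.43 and 10.27 in control, 2.57, 1.45 and 1.33 in lactic acidosis, 3.11, 2.84 and 2.53 in lactosis, and 5.44, 4.88 and 5.63 in acidosis. Acidosis lay between control and both lactate groups without overlap. It was lower in lactic acidosis than in acidosis (adjusted p 0.000187 by limma, difference -1.21, SE 0.15) and in lactosis than in acidosis (0.00121, -0.72, SE 0.08). Lactic acidosis and lactosis overlapped by 1 library, and their call (0.0402, -0.48, SE 0.15) was lost when any of 4 libraries was left out, with p from 0.0823 to 0.158. OSER1 itself, named for oxidative stress, moved less, from 56.76, 64.68 and 65.49 in control to 37.28, 46.12 and 39.83 in lactic acidosis and 43.78, 45.04 and 43.26 in lactosis.

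UNC5B-AS1 lies inside UNC5B, the gene of a netrin receptor, on the other strand and with no exonic overlap. It had 9.33, 7.1 and 6.37 in control, 0.52, 0.44 and 1.06 in lactic acidosis, 1.73, 0.32 and 1.37 in lactosis, and 2.33, 2.47 and 2.79 in acidosis. UNC5B was lower with it in the lactic acidosis table, going from 17.52, 12.28 and 6.78 to 1.63, 1.73 and 1.97, at deposited log2 folds of -2.95 for the gene and -3.47 for the transcript. Neither overlapped control. UNC5B-AS1 was lower in lactic acidosis than in acidosis (adjusted p 0.000157, difference -1.09, SE 0.13). Lactosis against acidosis passed at 0.047 (-0.79, SE 0.24), a call lost without lactosis replicate 3 or without any 1 acidosis library. Lactic acidosis against lactosis did not pass (0.36), but passed without lactosis replicate 2 (0.0199).

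NRSN2-AS1 and TNRC6C-AS1 separated other pairs. NRSN2-AS1 had 5.67, 7.67 and 5.36 in control, 2.05, 1.54 and 2.54 in lactic acidosis, 1.67, 2.1 and 1.9 in lactosis, and 3.22, 2.77 and 3.82 in acidosis. Acidosis was above lactic acidosis (adjusted p 0.0115, difference -0.49 for lactic acidosis minus acidosis, SE 0.13) and above lactosis (0.00756, -0.56, SE 0.11). TNRC6C-AS1, now within TMC6 in RefSeq, had 10.1, 11.85 and 14.4 in control, 7.61, 7.5 and 7.45 in lactic acidosis, 9.18, 8.54 and 10.65 in lactosis, and 7.96, 6.99 and 7.05 in acidosis. Lactosis was above both other treated groups, but with adjusted p values of 0.0443 and 0.04. The first call was lost when any library but lactosis replicate 2 was left out, and the second without lactosis replicate 1 or 3 or acidosis replicate 2 or 3.

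NUTM2B-AS1 was one of the few antisense transcripts above control. It had 9.77, 13.69 and 10.64 in control, 27.15, 26.45 and 21.71 in lactic acidosis, 18.56, 18.14 and 15.9 in lactosis, and 15.65, 17.47 and 13.08 in acidosis, where it overlapped control. Lactic acidosis was above lactosis (adjusted p 0.00838, difference 0.49, SE 0.10) and above acidosis (0.00152, 0.67, SE 0.12). NUTM2B, on the other strand, was low and lower, with 1.29, 1.12 and 1.14 in control and 0.49, 0.61 and 0.63 in lactic acidosis. SVIL-AS1, antisense to the supervillin gene, had 11.06, 13.98 and 16.79 in control, 22.42, 24.17 and 25.69 in lactic acidosis, and 20.05, 17.39 and 18.2 in acidosis, and the treated groups differed (0.00623, 0.36, SE 0.08). Against control, SVIL-AS1 passed limma in lactic acidosis (adjusted p 0.00377) but not in acidosis (0.0569).

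Taking both directions together, members passed between treated groups at shares near those of all genes listed in both tables. By direction, the shares were near each other in lactic acidosis against lactosis only. In the comparisons with acidosis, members passed as lower more often, and as higher less often, than all such genes. These members were few, and this was not tested. In lactic acidosis against lactosis, 8 of 38 members passed limma, 6 higher and 2 lower, against 20.4% of 2344 genes (15.7% higher, 4.78% lower). Their libraries lay apart for 8 members higher and 1 lower (32.5% and 8.45% of genes). With values rescaled to the authors' group means the split was 6 higher and 5 lower. In lactic acidosis against acidosis, 10 of 23 passed, 5 each way, against 48.8% of 1304 genes (38.7% higher, 10% lower), and libraries lay apart for 5 higher and 6 lower (46.5% and 11.7%). In lactosis against acidosis, 5 of 16 passed, 2 higher and 3 lower, against 23.9% of 1173 genes (16.4% and 7.5%), and libraries lay apart for the same numbers (26.3% and 13.4%). The median difference of members was 0.00, -0.01 and -0.14, beside 0.11, 0.15 and 0.05 over all genes. CBR3-AS1 completes the calls, at 1.52, 1.73 and 1.27 in lactic acidosis against 1.15, 0.99 and 0.99 in lactosis (adjusted p 0.0436, difference 0.29, SE 0.09). It was lost without lactic acidosis replicate 1 or 2 or any 1 lactosis library.

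The count for lactic acidosis against lactosis fell to 5 without lactic acidosis replicate 2 or lactosis replicate 1, and was 10 without lactosis replicate 2. For lactosis against acidosis it fell to 2 without lactosis replicate 3, and to 3 without lactosis replicate 1 or acidosis replicate 2 or 3. The calls of MIR100HG, ABALON, LINC00261, LINC01204 and NUTM2B-AS1 in lactic acidosis over lactosis passed whichever single library was left out. So did those of MIR100HG, ABALON, LINC00261, NUTM2B-AS1, SVIL-AS1, OSER1-AS1, UNC5B-AS1 and NRSN2-AS1 in lactic acidosis against acidosis.

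**Figure D3:**
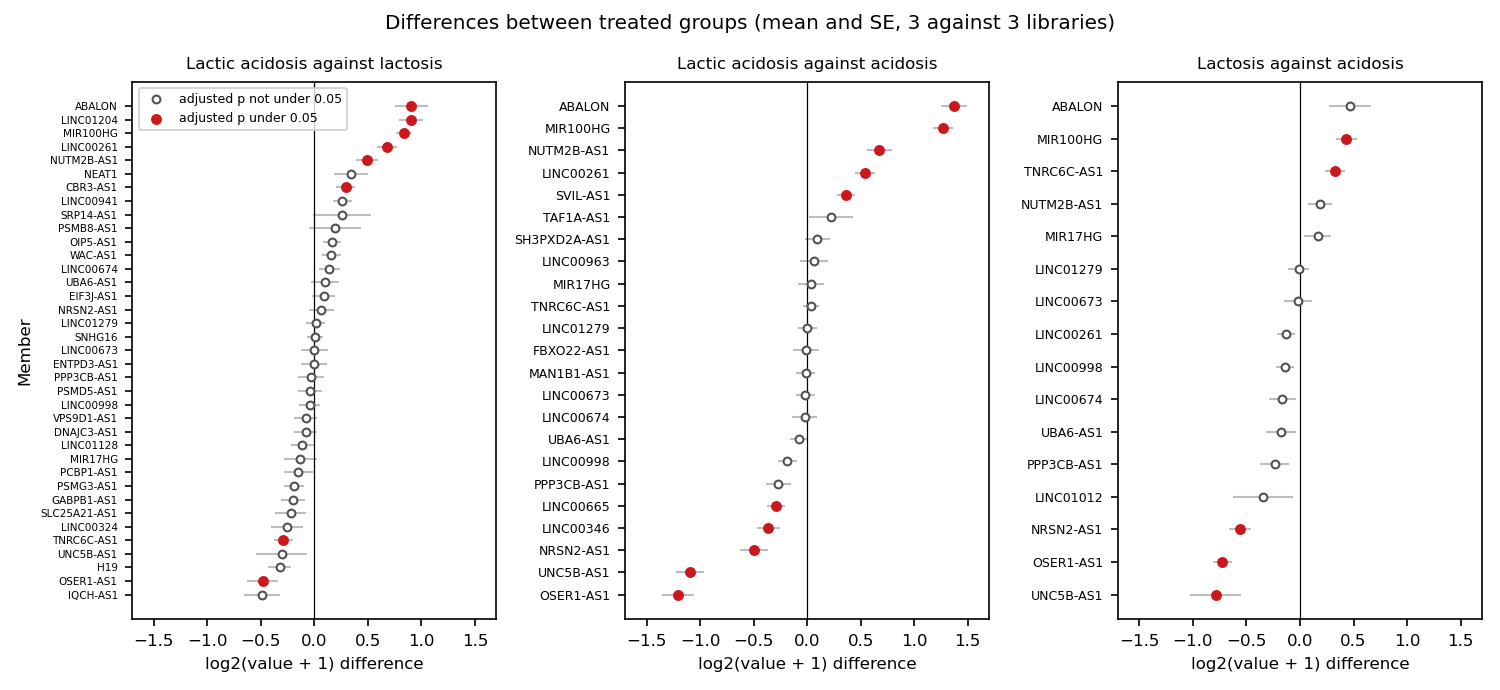
Points give members' differences between 2 treated groups on the log2(value + 1) scale (horizontal axis), with the standard error of 3 against 3 libraries as bars, and filled points passed limma at an adjusted p under 0.05. ABALON and MIR100HG lie furthest right in lactic acidosis against acidosis, at 1.37 and 1.27, and OSER1-AS1 and UNC5B-AS1 furthest left, at -1.21 and -1.09.

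UBA6-AS1 and PPP3CB-AS1 were lower in every table, by deposited log2 folds of -0.80, -0.82 and -0.61 for the first and -1.09, -0.90 and -0.60 for the second. UBA6-AS1, beside a gene of ubiquitin activation, had 12.93, 13.27 and 12.76 in control, 7.59 to 8.7 in lactic acidosis, 6.01 to 9.57 in lactosis and 8.05 to 9.09 in acidosis. PPP3CB-AS1, beside a gene of the phosphatase calcineurin, had 8.72, 9.09 and 8.17, then 3.95 to 5.11, 3.82 to 5.55 and 4.88 to 6.68. Both lay below control in every treated library, while the treated groups overlapped. Of their exonic bases, 29.3% for UBA6-AS1 and 27.1% for PPP3CB-AS1 lie under opposite-strand exons. DNAJC3-AS1 was further down where it was listed, with 4.1, 3.19 and 2.54 in control, 0.85, 0.67 and 0.75 in lactic acidosis, and 1.13, 0.59 and 0.89 in lactosis.

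For 26 of the 63 antisense members, the sense gene was listed in the same table at least once. In lactic acidosis there were 21 such pairs. The transcript was lower and the gene higher in 11 pairs, both were lower in 7, both higher in 2, and the transcript alone was higher in 1. Among all listed genes 58.9% were higher, and among listed antisense transcripts 8 of 55 were, and these shares are the background for the pairs. Starts of transcript and gene lay within 1000 bases of each other, on opposite strands, in 8 pairs, of which 6 went in opposite directions. In lactosis 5 of 8 pairs did. The only pair listed in acidosis, TNRC6C-AS1 and TNRC6C, was lower in both. Of the exonic bases of TNRC6C-AS1, 32.7% lie under opposite-strand exons, where reads cannot be told apart.

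RNF157-AS1 had the widest gap to its sense gene, an E3 ubiquitin ligase. The transcript had 0.96, 0.59 and 1.06 in control and 0.15, 0 and 0.1 in lactic acidosis, and RNF157 had 0.34, 0.92 and 0.96 against 2.65, 2.95 and 2.65. Neither overlapped, at deposited log2 folds of -3.14 and 1.82, although both levels were near the bottom of the scale. GABPB1-AS1, which starts 449 bases from the start of the GABP transcription factor gene GABPB1, had 4.45, 4.95 and 4.12 in control, 2.57, 2.06 and 2.01 in lactic acidosis, and 2.6, 3.27 and 2.24 in lactosis. GABPB1 had 21.07, 24.62 and 25.53 in control, 46.21, 48.26 and 43.1 in lactic acidosis, and 32.83, 32.34 and 33.6 in lactosis. Transcript and gene thus moved apart in both tables without overlapping control.

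The pairs whose shared promoter stretch is printed above behaved in different ways. EIF3J-AS1, beside a translation initiation factor gene, had 13.11, 14.71 and 13.73 in control and 10.06, 9.28 and 8.44 in lactic acidosis, while EIF3J had 148.25, 136.35 and 144.31 against 230.99, 243.62 and 225.77. USP46-AS1, beside a deubiquitinase gene, had 0.95, 2.59 and 2.27 against 0.56, 0.47 and 0.76, while USP46 had 2.17, 3.02 and 3.69 against 3.86, 3.98 and 4.21. In both, transcript below and gene above control, no library overlapped. In the OSER1 pair both partners were below control. TAF1A-AS1, beside a subunit of the RNA polymerase I factor SL1, had 6.34, 5.18 and 5.68 against 4.35, 2.81 and 2.77, while TAF1A had 19.39, 22.63 and 21.18 against 39.2, 36.32 and 34.55.

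Further pairs with a lower transcript and a higher gene in lactic acidosis included PAXIP1-AS1, HMGN3-AS1, PSMD5-AS1, PCBP1-AS1 and PITPNA-AS1. Their transcripts had deposited log2 folds of -1.20, -0.77, -1.32, -1.80 and -0.79, and their genes 0.55, 0.37, 0.47, 0.39 and 0.52. For PITPNA-AS1, 69.9% of exonic bases lie under opposite-strand exons, where its reads and those of PITPNA cannot be told apart. VIM-AS1 and SH3PXD2A-AS1 were higher together with their genes. VIM-AS1 was near 0 in control (0, 0.16 and 0.53) and had 1.06, 0.79 and 1.72 in lactic acidosis, while VIM, which encodes vimentin, a filament protein of mesenchymal cells, had 3.07, 3.95 and 4.4 against 8.03, 11.2 and 9.19. The transcript has 32.2% of its exonic bases under opposite-strand exons.

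Pairs in which both partners were lower included those of BAIAP2, CBR3, ATP6V0E2 and RUNDC3A, beside the OSER1, UNC5B and TNRC6C pairs. BAIAP2-AS1, which starts 241 bases from the gene of an actin-binding scaffold, had 4.25, 5.12 and 5.14 in control and 2.11, 2.39 and 2.1 in lactic acidosis, while BAIAP2 had 67.22, 68.02 and 65.18 against 43.85, 42.33 and 47.36. CBR3, a carbonyl reductase gene, had 31.78, 29.83 and 38.81 against 20.78, 18.33 and 19.64, and CBR3-AS1 had 4, 3.3 and 3.56 against the values given above. Neither pair overlapped control. The deposited log2 folds of transcript and gene were -1.49 and -1.02 for the ATP6V0E2 pair and -1.44 and -1.703 for the RUNDC3A pair, whose transcript was at 0.61 or below in every library. RUNDC3A-AS1 did not pass limma against control (adjusted p 0.0734). For ATP6V0E2-AS1, 26.3% of exonic bases lie under opposite-strand exons, where reads cannot be told apart.

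**Figure D4:**
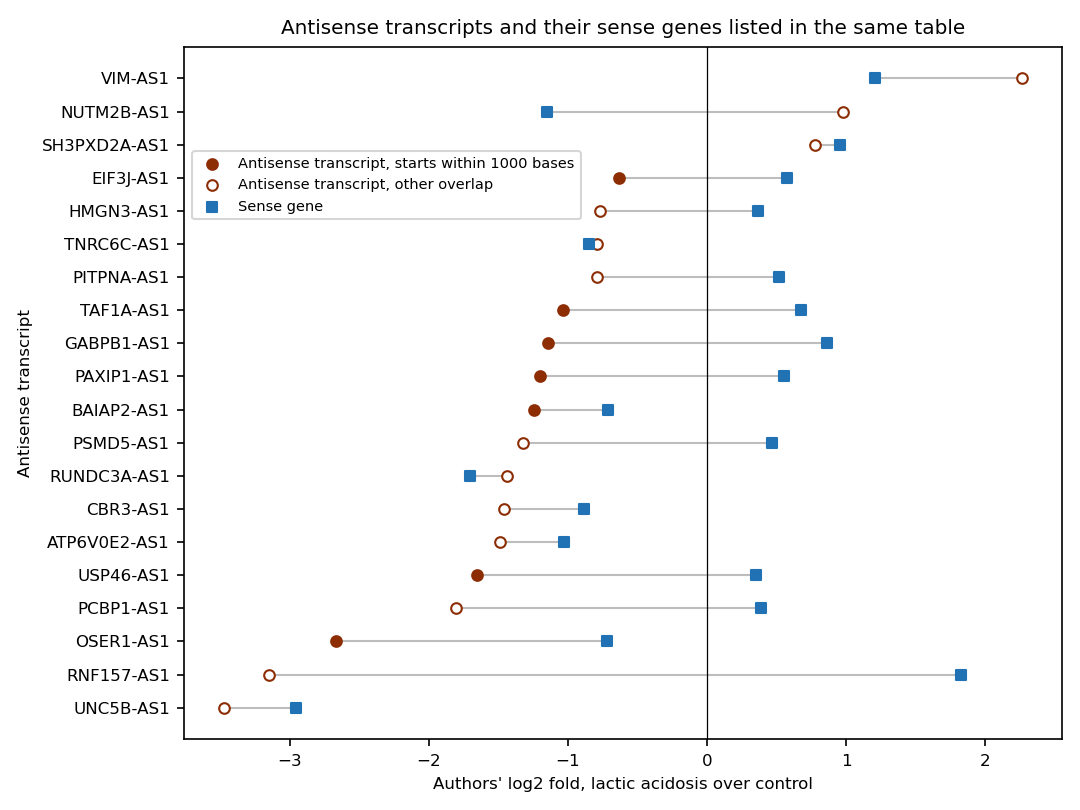
Each row joins an antisense transcript (circles, filled where the starts lie within 1000 bases) to its sense gene (squares) by their log2 fold in lactic acidosis over control (horizontal axis), from the authors' deposited table. RNF157-AS1 spans the widest gap, from -3.14 to 1.82 for its gene, and UNC5B-AS1 at -3.47 and its gene at -2.95 lie together on the left.

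Several members were listed in 1 treatment only. The authors listed 39 in lactic acidosis alone, 7 in lactosis alone and 6 in acidosis alone, and 15 were listed in all 3 tables. A gene absent from a table has no value there, so a listing in 1 table does not show a difference between treatments. The 6 in acidosis alone were LINC00364, ATP6V1B1-AS1, COX10-AS1, TMPO-AS1, CEBPB-AS1 and STARD7-AS1. ATP6V1B1-AS1 had 0.63, 0.54 and 1.25 in control and 1.89, 3.39 and 3.19 in acidosis, and TMPO-AS1 1.21, 1.78 and 3.97 against 4.44, 4.53 and 4.88. COX10-AS1 had 0.37, 1.27 and 1.4 against 2.47, 1.77 and 1.71, and CEBPB-AS1 went from 1.92, 2.96 and 1.43 to 0.82, 0.81 and 0.75. All 4 separated from control, with limma's adjusted p at 0.00136, 0.0111, 0.027 and 0.00653. For ATP6V1B1-AS1, 71% of windows of 75 bases occur in another transcript of the same sense.

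Long noncoding RNAs with other kinds of names were also looked up. Of 42 on a list, 1 was higher and 5 lower in lactic acidosis, 3 and 2 in lactosis, and 1 and 2 in acidosis, beside 41.1%, 40.7% and 38.9% of all listed genes lower. HCP5, a transcript of the major histocompatibility region, had 10.66, 14.1 and 13.37 in control, 3.96, 3.55 and 3.38 in lactic acidosis, and 4.48, 3.75 and 4.08 in lactosis. PSMB8-AS1, a member beside the immunoproteasome genes of that region, had 9.2, 9.68 and 10.75, then 2.06 to 3.03 and 0.93 to 3.49, with 55% of its exonic bases under opposite-strand exons. CCAT1 was the one above control in lactic acidosis, with 11.03, 18.83 and 19.74 in control and 31.75, 42.48 and 37.26 there.

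For a few members the 2 kinds of deposited value did not match. This was counted only where both group means were at least 10. After rescaling, the log2 ratio of per-library values and that of the group means differed by more than 0.3 in 3 of 72 members in lactic acidosis (0.269% of 4082 genes), 3 of 43 in lactosis (0.334% of 2993) and 0 of 27 in acidosis (0.118% of 1690). They included IQCH-AS1 and SRP14-AS1 in both lactate tables, and LINC01012 in lactosis. IQCH-AS1 in lactosis had 8.89, 10.27 and 8.56 in control and 11.14, 7.75 and 11.28, a log2 ratio of 0.12, whereas the authors' means put it at -0.75. Its listing as lower is thus not borne out by its own per-library values, and the reason was not tested.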

How the data were processed

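Members and gene lists were chosen with earlier results of these data known. Per the submitters' processing notes, reads were aligned with STAR to hg38. The counting tool and its strand setting are not given in the sources used here. The authors deposited 3 tables of listed genes. Their per-library values are a signal that the authors scaled for gene length. The authors' group means are a signal of count size, scaled within each table. Their deposited fold is a ratio of control over treated, turned round here, so that positive log2 values are higher in treated cells. The posterior probability of equal expression that the authors deposited was under 0.05 throughout. Control values were the same in all tables.

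Per-library values were tested with limma 3.58.1 (R 4.3.3) on log2(value + 1), 3 against 3 libraries, with Benjamini-Hochberg adjustment over the whole table, or over genes listed in both tables for treated groups. No low-value filter was set, so every listed member was tested. The procedure was tested on simulated data. Library weights fitted to the authors' means gave rescaled values. Named members were those listed in all tables, the 6 largest folds each way per table with a group mean of at least 10, hosts and singly named RNAs, antisense members with their sense gene listed, and up to 5 calls each way between treated groups. Other members are given by counts. Single results of 2 members are not reported here. LINC00493, SRP14-AS1, IQCH-AS1 and STARD7-AS1 were named after their values were seen. Positions are from GENCODE 29, and sequences from RefSeq (GRCh38.p14).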

Additional observations from a re-analysis of the deposited data

How the results depend on the processing

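No limma call of the members that the naming rule picked changed direction under the alternatives run. Requiring a change of at least 2-fold left 50, 20 and 10 listed members under lactic acidosis, lactosis and acidosis. In settings chosen after seeing the data, members without exonic overlap with the other strand numbered 39, 19 and 18. In 1 fit of all 12 libraries, restricted to genes listed in every table, lactic acidosis against lactosis gave 5 calls. Leaving out single libraries gave 63 to 83 calls for lactic acidosis against control, 30 to 44 for lactosis, 15 to 27 for acidosis, 5 to 10 between lactic acidosis and lactosis, 8 to 11 against acidosis, and 2 to 6 for lactosis against acidosis. Adding the replicate block gave, in that order, 80, 37, 21, 7, 11 and 5. Whether same-numbered libraries belong together is not known. Their deviations correlated at 0.155, 0.099 and -0.083 for lactic acidosis and control, and 3 libraries per group cannot decide it. With that block, CBR3-AS1 and TNRC6C-AS1 in lactic acidosis against lactosis had adjusted p values of 0.0928 and 0.0959. Over the members that the rule picked, and not over all members, 1871 values kept their side of the threshold, 159 lost the call, 31 gained one and 47 changed sign without passing. No read totals are given, so what depth allows could not be set.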
